A study of Mus musculus with 4 samples.

Results

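The transcripts described here encode the enzymes that write, copy and erase DNA methylation: Dnmt1, Dnmt3a, Dnmt3b, Dnmt3l, Uhrf1, Tet1, Tet2 and Tet3. They were taken by name, and every array probe whose RefSeq accession belongs to one of these 8 mouse genes was used. This gave 10 of the 41174 probes on the array, for 6 of the 8 genes and of 16355 named genes in all: 3 for Dnmt3a, 2 each for Uhrf1 and Tet2, and 1 each for Dnmt1, Dnmt3b and Dnmt3l. Tet1 and Tet3 had no matched probe and are not analysed here.

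The RNA came from testes of male mice at postnatal day 7 that carry a transgene in which a Nanos2 enhancer drives Nanos2 with a FLAG tag repeated in tandem, joined to the Nanos2 3′ untranslated region. All 4 samples carry the transgene. RNA recovered with the FLAG tag (FLAG IP) was compared with RNA of the starting material (Input), each as 2 biological replicates on single-colour Agilent mouse arrays. The sample titles and characteristics state day 7 and are followed here, although a free-text description mentions an embryonic gonad. An untagged testis taken through the same FLAG IP is not analysed here, so a difference between FLAG IP and Input is a difference in a transcript's share of the RNA and not by itself binding by NANOS2. The input is whole testis, in which fewer cells of a type and less RNA per cell cannot be told apart.

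NANOS2, which binds RNA in male germ cells, recruits the CCR4-NOT deadenylase to mRNAs and is needed to maintain spermatogonial stem cells. DNA methylation of the male germ line is laid down largely before birth by DNMT3A with its catalytically inactive cofactor DNMT3L, while DNMT3B is a related de novo methyltransferase. DNMT1, brought to newly replicated DNA by UHRF1, copies the pattern at each division, and the TET dioxygenases oxidise methylcytosine on the way back to cytosine. These enzymes are made in somatic cells of the testis as well as in germ cells, except that DNMT3L is known mainly from germ cells.

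A level below is the log2 of a probe's signal over the 75th percentile of its array, and a change is the FLAG IP mean less the Input mean of such levels. The number of arrays limits the precision, and the levels of different probes cannot be set against each other. The share of probes flagged as well above background ranged from 66.3% to 68.4% by array, and 0 spots were saturated. In limma, 27824 probes were tested, of which 4331 were higher and 5585 lower in the FLAG IP at a Benjamini-Hochberg adjusted p under 0.05. Those counts were 1166 and 775 without Input replicate 1, and 1266 and 641 without Input replicate 2. The higher calls were 43.7% of all calls, but 3.91% with the spike-in controls as the scale, which moved the median change of all tested probes by −0.98. Changes are therefore relative to the bulk of the RNA on each array. Of 17 tested markers of undifferentiated spermatogonia 13 were higher and 1 lower, and their summed signal was 9.41 and 9.69 times the 75th percentile in the Input and 45.6 and 35.4 times in the FLAG IP. The 13 include Nanos2 (change of 1.58), which the transgene also encodes, and the part of transgene RNA in its signal was not tested. Of 15 Sertoli cell markers 7 were lower and 0 higher, with a summed signal of 194 and 189 in the Input and 139 and 132 in the FLAG IP. Leydig cell markers had 5 of 9 lower (40.1 and 30.4 against 14.6 and 18.5), peritubular myoid markers 4 of 7 lower (126 and 113 against 74.8 and 76.6) and macrophage markers 6 of 6 lower (12.5 and 13.2 against 7.87 and 8.05). Markers of germ cells in general had 2 of 9 higher and 0 lower (70.8 and 70.0 against 83.0 and 110). Markers of differentiating spermatogonia had 2 of 7 higher and 1 lower (76.4 and 68.7 against 69.8 and 84.5), endothelial markers 0 of 6 called (1.88 and 2.65 against 1.95 and 1.40) and red blood cell markers 1 of 2 lower (29.0 and 19.0 against 8.75 and 11.2). Every marker with a matched probe in these lists was well above background on at least 1 array. A summed signal is weighted towards the brightest probes of its list, so it does not measure the amount of a cell type. In the FLAG IP the brightest was Foxo1 for undifferentiated spermatogonia (levels of 4.67 and 4.24) and Clu for Sertoli cells (6.16 and 6.08). It was Stra8 for differentiating spermatogonia (5.34 and 5.87) and Lyz2 for macrophages (2.75 and 2.75). The counts of calls do not carry that weighting. The part of cell type makeup in the members' values was not tested.

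Dnmt3a was the member gene with a difference between FLAG IP and Input past the threshold, on part of its probes, and the others were not called. Of the 9 member probes tested, 0 were called higher and 2 were called lower, both of them probes of Dnmt3a. Among all tested probes 35.6% were called in either direction, 15.6% higher and 20.1% lower, so 2 lower calls among 9 is near the background. Before adjustment, Tet2 and 1 of the 2 Uhrf1 probes also passed 0.05 in limma, and their adjusted values are given with their levels. The median change of the 9 probes was −0.15, beside −0.13 over all tested probes.

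**Figure D1:**
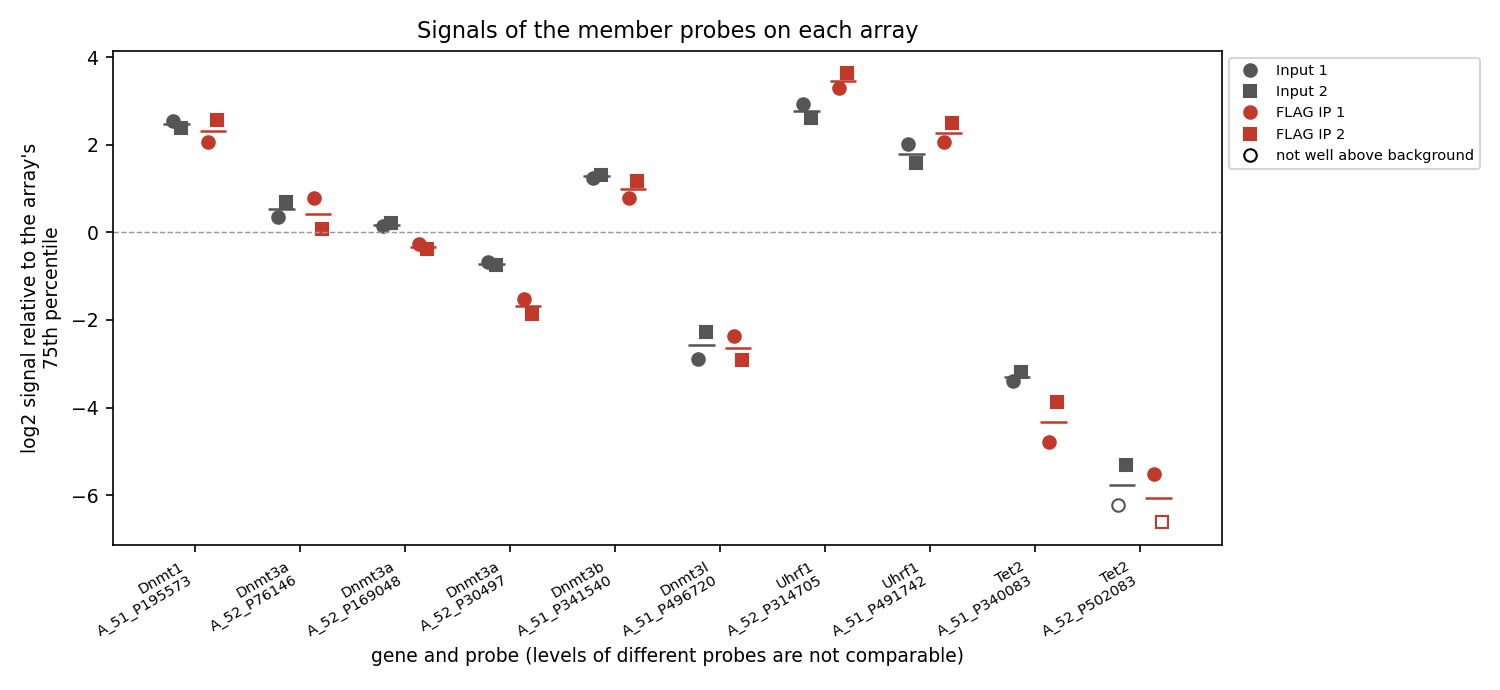
Log2 signal of each member probe relative to the 75th percentile of its array (vertical axis) on the 2 Input arrays (grey) and the 2 FLAG IP arrays (red), with circles for replicate 1, squares for replicate 2, a line at each group mean and open symbols where a probe was not well above background. The FLAG IP arrays lie below the Input arrays for Dnmt3a A_52_P169048, Dnmt3a A_52_P30497, Dnmt3b and Tet2 A_51_P340083, and above them for both Uhrf1 probes.

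Dnmt1, the maintenance methyltransferase (RefSeq NM_010066, probe A_51_P195573), had levels of 2.55 and 2.39 on the Input arrays and of 2.07 and 2.56 on the FLAG IP arrays. The groups overlapped, since the lowest and the highest of the 4 values were both FLAG IP arrays. The change was −0.15 ± 0.21 (SE, n = 2 arrays per group, limma adjusted p = 0.60), with a 95% interval from −0.71 to 0.41. The data thus leave room for a level in the FLAG IP between 0.612 and 1.33 times that of the Input.

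Uhrf1 (NM_010931) encodes the ring-finger protein that recognises hemimethylated DNA and recruits DNMT1. Its brighter probe, A_52_P314705, had levels of 2.92 and 2.61 in the Input and of 3.28 and 3.63 in the FLAG IP. The second probe, A_51_P491742, had 2.01 and 1.58 in the Input and 2.06 and 2.49 in the FLAG IP. On both probes every FLAG IP array was above every Input array. The changes were 0.69 ± 0.20 (limma adjusted p = 0.054) and 0.49 ± 0.24 (adjusted p = 0.17), so neither was called, although both estimates were positive. Both estimates were negative under spike-in scaling, at −0.28 and −0.49, while still above the median of all tested probes on that scale (−1.10). The brighter probe passed the threshold under quantile normalization (0.82, adjusted p = 0.029) and under normexp background correction (0.62, adjusted p = 0.049). It also passed with the filter on all 4 arrays (adjusted p = 0.045) and with trend and robust moderation (0.027). It did not pass with a block for the replicate number (adjusted p = 0.11), scaling to the median (0.071) or no filter on dim probes (0.10). The deposited values (adjusted p = 0.054) and the brightest probe per gene (0.052) did not bring it past the threshold either. Without any 1 array its change stayed between 0.52 and 0.87.

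Dnmt3a, the de novo methyltransferase (NM_007872), had 3 probes that did not give the same answer. On A_52_P30497 the levels were −0.69 and −0.75 in the Input and −1.52 and −1.85 in the FLAG IP, a fall of 1.96-fold (−0.97 ± 0.17, limma adjusted p = 0.017). On A_52_P169048 they were 0.14 and 0.20 in the Input and −0.28 and −0.38 in the FLAG IP, a fall of 1.42-fold (−0.50 ± 0.14, adjusted p = 0.048). On these probes both FLAG IP arrays lay below both Input arrays. The brightest probe, A_52_P76146, had 0.35 and 0.69 in the Input and 0.78 and 0.08 in the FLAG IP, where the FLAG IP arrays held both the highest and the lowest value. Its change was −0.09 ± 0.29 (adjusted p = 0.81), with a 95% interval from −0.84 to 0.65 that takes in the change of A_52_P169048 but not that of A_52_P30497.

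The 3 probes match the same transcript accession, and their positions within it are not given in the files used here. Within an array, where scaling cancels, A_52_P76146 exceeded A_52_P30497 by 1.04 and 1.44 in the Input and by 2.30 and 1.93 in the FLAG IP. The excess was larger in both FLAG IP arrays, by 0.88 on average. A_52_P76146 exceeded A_52_P169048 by 0.21 and 0.49 in the Input and by 1.05 and 0.46 in the FLAG IP. Here the groups overlapped, with a shift of 0.41. The called probe A_52_P169048 exceeded A_52_P30497 by 0.83 and 0.96 in the Input and by 1.25 and 1.47 in the FLAG IP. That shift was 0.47, without overlap. With all 3 probes averaged the change of Dnmt3a was −0.52 ± 0.18 (limma adjusted p = 0.085) and was not called. A fit without 1 array has a group of 1 array, which is assumed to vary like the other group. Its p-values rest on the spread of that other group, moderated by limma over all tested probes. Without Input replicate 1 or 2 the change of A_52_P30497 was −0.94 or −1.002 and was not called (adjusted p = 0.11 and 0.097). Without any 1 array the change of A_52_P169048 stayed between −0.56 and −0.45 and was not called (adjusted p from 0.058 to 0.28).

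Dnmt3b, the related de novo enzyme (NM_010068, A_51_P341540), had levels of 1.25 and 1.31 in the Input and of 0.79 and 1.17 in the FLAG IP. Both FLAG IP values lay below both Input values, with FLAG IP replicate 2 only slightly so. The change of −0.30 ± 0.18 was not called (limma adjusted p = 0.25, 95% interval −0.77 to 0.18).

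Dnmt3l, the cofactor that stimulates DNMT3A in male germ cells (NM_019448, A_51_P496720), was dim but well above background on all 4 arrays. Its levels were −2.89 and −2.28 in the Input and −2.37 and −2.91 in the FLAG IP, so the groups overlapped almost completely. The change was −0.06 ± 0.30 (limma adjusted p = 0.89, 95% interval −0.83 to 0.71). The Input replicates differed by 0.61, more than the replicates of 94.1% of tested probes, and the interval spans levels between 0.564 and 1.64 times that of the Input. The median change of the markers given above was 1.62 for undifferentiated spermatogonia. It was 0.12 for germ cells in general and −0.18 for differentiating spermatogonia.

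Of the erasers, which turn methylcytosine into hydroxymethylcytosine and further oxidised forms, Tet2 (NM_001040400) was measured. On A_51_P340083 its levels were −3.38 and −3.20 in the Input and −4.79 and −3.87 in the FLAG IP. Both FLAG IP arrays were below both Input arrays, but they differed from each other by 0.92, more than the FLAG IP replicates of 94.3% of tested probes. The change of −1.04 ± 0.33, or 2.05-fold, was the largest of the 9 member probes in size and was not called (limma adjusted p = 0.067, 95% interval −1.90 to −0.17). Under normexp background correction it was −0.41 (adjusted p = 0.094). Without FLAG IP replicate 2 it was −1.50 and without FLAG IP replicate 1 it was −0.58, so its size depended on which FLAG IP array was kept.

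The second Tet2 probe, A_52_P502083, was near background, with levels of −6.23 and −5.32 in the Input and −5.51 and −6.61 in the FLAG IP. It was well above background on 1 array of each group, so it was not tested and gives no second estimate for Tet2.

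**Figure D2:**
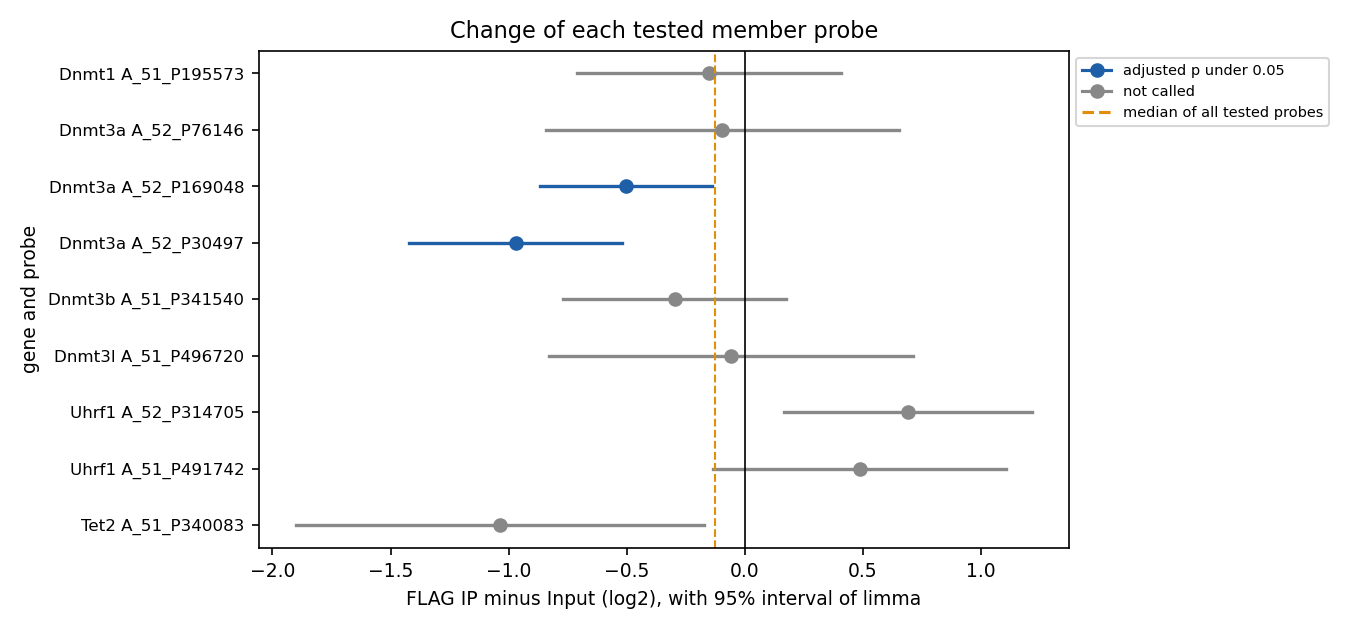
FLAG IP minus Input on the log2 scale (horizontal axis) for the 9 tested member probes, with the 95% interval of limma (bars), blue where the adjusted p was under 0.05 and grey where it was not, and a dashed line at the median of all tested probes (−0.13). The Dnmt3a probes A_52_P169048 and A_52_P30497 are blue, and the intervals of Dnmt1, Dnmt3b, Dnmt3l, Dnmt3a A_52_P76146 and Uhrf1 A_51_P491742 (−0.13 to 1.11) span 0.

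Of the 9 tested probes, 2 had FLAG IP arrays wholly above the Input arrays, 4 wholly below and 3 overlapping. Over all tested probes 73.9% had groups that did not overlap, 30.5% with the FLAG IP wholly above and 43.3% with it wholly below, so this split was near the background too. In the order of changes from lowest to highest, Tet2, Dnmt3a A_52_P30497, Dnmt3a A_52_P169048, Dnmt3b, Dnmt1, Dnmt3a A_52_P76146, Dnmt3l and the Uhrf1 probes A_51_P491742 and A_52_P314705 followed each other. Among all tested probes, 8.37% had a lower change than Tet2 and 84.4% a lower change than the brighter Uhrf1 probe.

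Differences between member probes on the same array do not depend on how arrays are scaled, but can depend on the background correction. Dnmt1 minus Uhrf1 was −0.37 and −0.22 in the Input and −1.21 and −1.07 in the FLAG IP, a shift of −0.84 with both FLAG IP arrays below both Input arrays. Dnmt3b minus Uhrf1 was −1.67 and −1.30 in the Input and −2.49 and −2.46 in the FLAG IP, a shift of −0.99. Dnmt1 minus Dnmt3b was 1.30 and 1.08 in the Input against 1.28 and 1.39 in the FLAG IP, with overlapping groups and a shift of 0.15.

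The largest shift between genes was that of Uhrf1 minus Tet2, with 6.30 and 5.81 in the Input against 8.07 and 7.50 in the FLAG IP, a shift of 1.73 or 3.32-fold. After normexp background correction, an alternative run on these differences after the data were seen, it was 1.03 or 2.04-fold, still without overlap, and the shift of Dnmt1 minus Tet2 went from 0.89 to 0.22, where the groups overlapped. The shifts of Dnmt1 minus Uhrf1 and Dnmt3b minus Uhrf1 were then −0.81 and −0.92. In all 19 pairs of probes were compared, those of the brightest probe of each gene and those within Dnmt3a and within Uhrf1. With 2 arrays against 2, a two-sided exact permutation test cannot go below p = 0.333, which is the value of each pair whose groups did not overlap (0.633 adjusted over the 19 pairs).

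**Figure D3:**
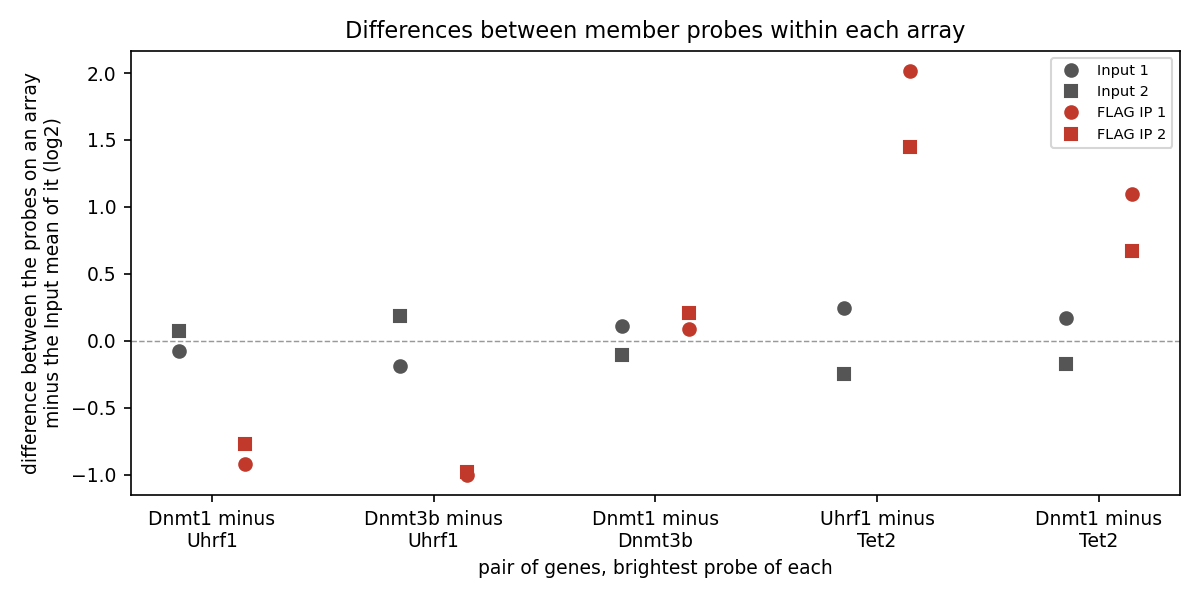
Log2 difference between the brightest probes of 2 genes on the same array, after subtracting its mean over the Input arrays (vertical axis), for 5 pairs of member genes on the Input (grey) and FLAG IP arrays (red), with circles for replicate 1 and squares for replicate 2. Both FLAG IP arrays lie below the Input arrays for Dnmt1 minus Uhrf1 and Dnmt3b minus Uhrf1, and above them for Uhrf1 minus Tet2 and Dnmt1 minus Tet2 (the latter overlapping after normexp background correction), while those of Dnmt1 minus Dnmt3b overlap them.

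Other genes of the methylation cycle were taken from 7 lists, with the brightest probe of each gene. Of their 68 distinct tested genes 12 were called higher and 4 lower, with a median change of 0.07. Over all 13251 tested named genes 16.0% were called higher and 18.6% lower, with a median of −0.12. Without Input replicate 1 the lists had 2 genes called higher and 0 lower, and without Input replicate 2 they had 0 and 0.

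Among partners and cofactors of the methyltransferases 3 of 11 tested genes were called higher and 0 lower, with a median of 0.21. Uhrf2, the paralogue of Uhrf1, had 1.22 and 1.13 in the Input and 1.99 and 2.03 in the FLAG IP and rose by 0.84 ± 0.14 (limma adjusted p = 0.015), but was at −0.14 under spike-in scaling. Its other probe rose by 1.67. Rbbp4, a histone-binding subunit shared by many chromatin complexes, rose by 1.57 ± 0.32. Its levels were 4.24 and 3.38 in the Input and 5.27 and 5.49 in the FLAG IP. Of its other probes, 1 had 1.81 and was called higher, and 1 had −0.41 and was not called. With no filter on dim probes Rbbp4 was not called (limma adjusted p = 0.062). Hdac1, a histone deacetylase, rose by 1.18 ± 0.15. Trim28, the corepressor that brings methylation to imprinted and retroviral sequences, had −0.51 ± 0.15 (adjusted p = 0.050, not called).

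Of the readers of methylated CpG 3 of 7 were called higher and 0 lower, with a median of 0.14. Zbtb33, the zinc finger reader known as Kaiso, rose by 1.37 ± 0.27, Mbd1 by 1.11 ± 0.20 and Zbtb38 by 1.10 ± 0.15 (limma adjusted p from 0.010 to 0.022). The second Mbd1 probe rose by 0.78. Zbtb38 was dim, with −5.05 and −5.03 in the Input and −4.05 and −3.83 in the FLAG IP. Its rise was 0.69 under normexp background correction, where it was still called. Mbd2 had −0.46 ± 0.14 and was not called.

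Of the partners and regulators of the TET enzymes 3 of 9 were called lower and 0 higher, with a median of −0.23. Hdac2, a deacetylase, fell by 1.39 ± 0.38 (limma adjusted p = 0.046), with a change of like size but no call under quantile normalization (−1.39, adjusted p = 0.052), scaling to the median (−1.37, 0.053) and no filter on dim probes (−1.39, 0.11). Without Input replicate 1 or 2, with a single Input array left, it had −1.24 and −1.53 (adjusted p = 0.17 and 0.11). Idh1, an isocitrate dehydrogenase that makes the TET cosubstrate, fell by 0.91 ± 0.22. Ogt, the O-GlcNAc transferase bound by TET proteins, fell by 0.69 ± 0.16, and its second probe at −0.40 was not called. With a block for the replicate number Idh1 and Ogt were not called (limma adjusted p = 0.066 and 0.087). Nor were they with no filter on dim probes (adjusted p = 0.072 and 0.061). Dppa3, which protects methylation in the early embryo, had −0.46 ± 0.21 and was not called.

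In base excision repair of modified cytosine, 1 of 12 genes was called higher and 0 lower. Mbd4, a thymine glycosylase with a methyl-CpG-binding domain, rose by 0.67 ± 0.13 (limma adjusted p = 0.023), but was at −0.31 under spike-in scaling. Tdg, the glycosylase that removes the TET products, had 0.37 ± 0.14 (−0.61 under spike-in scaling), Parp1 −0.46 ± 0.19 and Xrcc1 −0.42 ± 0.14, and none of these was called.

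Of the genes that supply the methyl donor 2 of 10 were called higher. Mat2a, the catalytic subunit of methionine adenosyltransferase, which makes S-adenosylmethionine, rose by 0.81 ± 0.14 (limma adjusted p = 0.015) and its regulatory subunit Mat2b by 0.59 ± 0.13, at −0.17 and −0.39 under spike-in scaling, and the other Mat2b probe had 0.03. Tyms had −0.60 ± 0.22 and was not called.

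Of histone enzymes coupled to DNA methylation 2 of 7 were called higher and 0 lower. Ehmt1, a histone methyltransferase, rose by 1.27 ± 0.15 (limma adjusted p = 0.0080) and Suv39h2 by 0.59 ± 0.14, the latter at −0.39 under spike-in scaling. The other Suv39h2 probes had 0.52, not called, and 2.20, called higher. Suv39h1 (0.66 ± 0.19, but −0.32 under spike-in scaling) and Nsd1 (−0.44 ± 0.18) were not called.

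Germ cell genes whose promoters are known to be methylated in somatic cells had 1 of 12 higher and 0 lower, with a median of 0.12. Sycp1, of the synaptonemal complex, rose by 1.54 ± 0.21 (limma adjusted p = 0.0099). Dazl had 0.66 ± 0.23, Asz1 0.44 ± 0.27 and Slc25a31 −0.46 ± 0.16, and none of these was called; Dazl and Asz1 were at −0.31 and −0.54 under spike-in scaling. The second Dazl probe had 0.05. Under spike-in scaling 0 genes of the 7 lists were called higher and 35 lower.

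**Figure D4:**
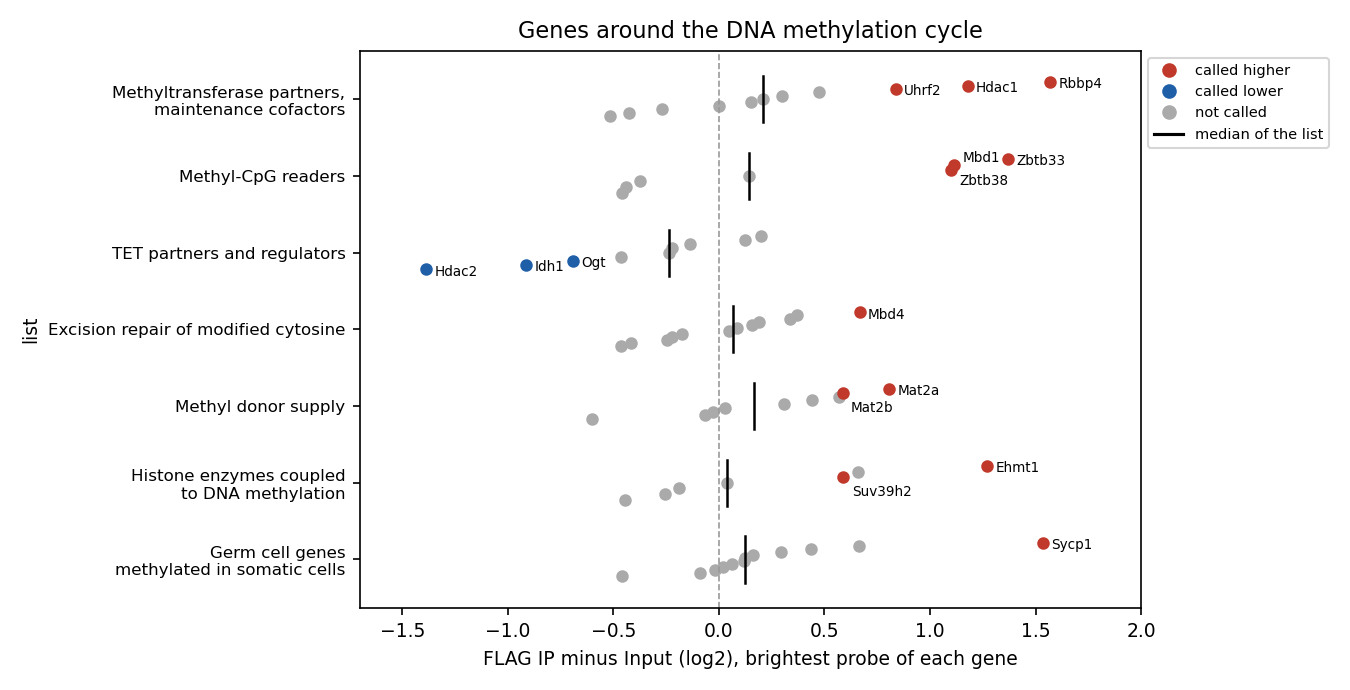
FLAG IP minus Input on the log2 scale (horizontal axis) for the tested genes of the 7 lists (rows; 1 gene is not plotted), red where called higher, blue where called lower and grey where not called, with a black line at the median of each list. Called genes are named: the 12 red genes lie in 6 lists, and the 3 blue genes are TET partners and regulators.

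The tested probes of other named genes whose profile over the 4 arrays was nearest to that of Tet2 A_51_P340083, by Euclidean distance of log2 levels centred on each probe's mean, were those of Rnd3, an atypical small GTPase (distance 0.086), Ctnna3, an alpha-catenin (0.091), and Ahnak, a large scaffold protein (0.14), among 18682 probes. Their changes were −1.08, −1.11 and −1.13, and each was lower on FLAG IP replicate 1 than on FLAG IP replicate 2, as Tet2 was. This likeness follows from how the probes were chosen and is not a separate result.

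The spread of the member estimates over the processing alternatives is set out in the plot of changes by setting. Outside spike-in scaling and the leaving out of single arrays, no member probe changed direction. Leaving out 1 array turned the estimate of Dnmt1, of Dnmt3l and of Dnmt3a A_52_P76146 positive, at 0.095, 0.25 and 0.26 at most.

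**Figure D5:**
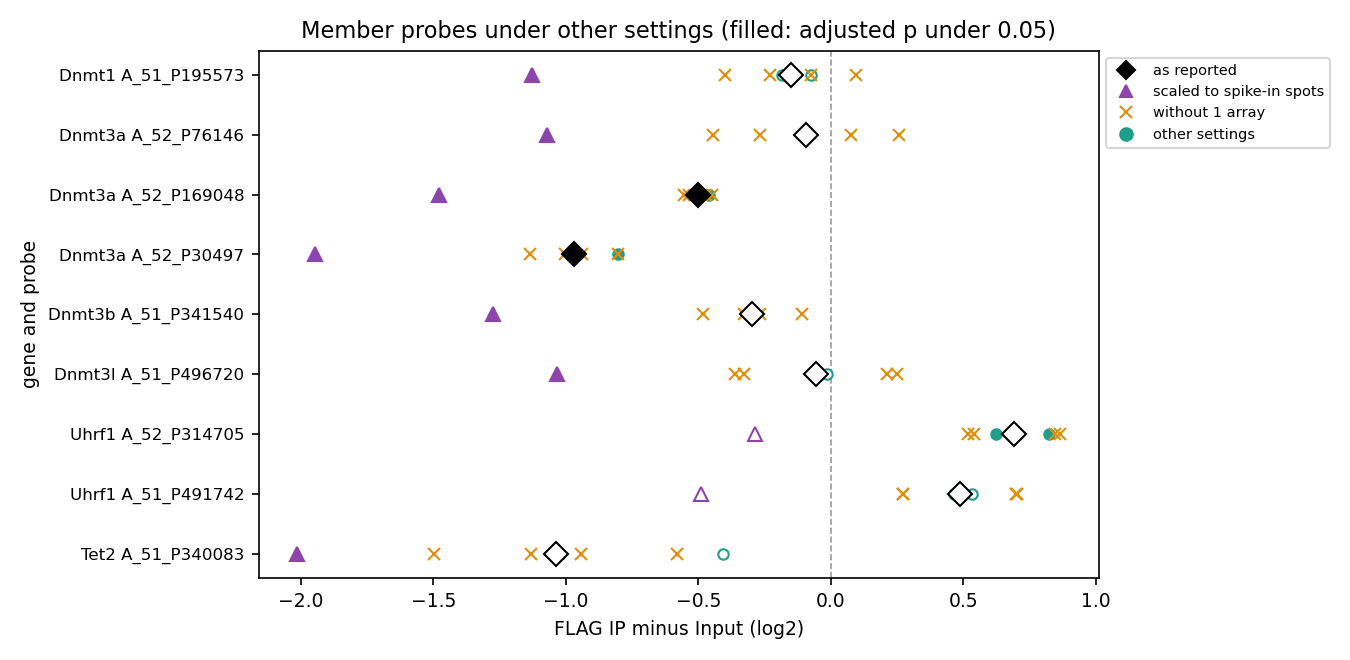
FLAG IP minus Input on the log2 scale (horizontal axis) for the 9 tested member probes under each processing alternative: as reported (diamonds), scaled to spike-in spots (triangles), without 1 array (crosses) and under other settings (circles), filled where the adjusted p was under 0.05 except for crosses. Spike-in scaling puts all 9 estimates below 0, and leaving out 1 array moves Dnmt1, Dnmt3l and Dnmt3a A_52_P76146 to both sides of 0.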

How the data were processed

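The 4 arrays were scanned and their spots extracted with Agilent Feature Extraction 9.5, per the submitters' processing notes, on 1 slide in 1 scan, per the file headers. The deposited intensity files hold a background-subtracted processed signal and raw median signals, per the file headers. The deposited series table holds the authors' log2 values, which for 99.6% of probes lay within 0.01 of the log2 processed signal after subtracting 1 constant for each array. What software did that scaling is not given in the labels.

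Control spots and 62 to 90 outlier spots per array were left out, spots of a probe were averaged, and log2 signals were set relative to each array's 75th percentile (1474 and 1676 in the Input, 1019 and 1267 in the FLAG IP). Probes were named by accession through RefSeq of GRCm38.p6 (55.7% of 41174). The array was designed on another build, so no coordinates are given. A probe was tested where both Input arrays or both FLAG IP arrays flagged it as well above background. The test, also run on simulated data with an outcome not reported here, was limma's moderated fit (lmFit, then eBayes, version 3.58.1, R 4.3.3), two-sided and without covariates. All SEs and adjusted p-values are from that fit. Genes of the lists were named by rule, at most 4 in each list by size of change, those past the threshold before others; other genes named are members, markers or the 3 nearest profiles. Results of some list genes are not reported here. The members and lists were chosen with earlier results of these data known. The labels name no animals, so p-values measure the spread between these samples.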

Additional observations from a re-analysis of the deposited data

How the results depend on the processing

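Over the 11 alternatives that give values per probe, not counting the leaving out of arrays, 78 of 96 member results kept direction and side of the threshold, 13 passed it anew, 3 lost it and 2 reversed, the Uhrf1 probes under spike-in scaling (−0.28 and −0.49). Same-numbered Input and FLAG IP arrays deviated in opposite directions (r = −0.38 over 27824 probes), so the main fit used no pairing by number. The labels do not say whether the numbers pair the samples. A replicate block gave 2875 probes higher and 2701 lower, 7 and 2 genes of the lists, and again 2 member probes lower, but with Tet2 in place of Dnmt3a A_52_P169048 (adjusted p = 0.049 and 0.16). A crossed block, chosen after seeing the data, gave 2 member probes higher, both of Uhrf1, and 8 list genes lower. Counts of members in the next paragraph are of their probes, except where each gene has a single value.

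Spike-in scaling gave 716 probes higher and 17589 lower, 7 member probes lower, and 0 list genes higher and 35 lower; it also reversed Uhrf2 (−0.14), Mbd4 (−0.31), Tdg (−0.61), Mat2a (−0.17), Mat2b (−0.39), Suv39h2 (−0.39), Suv39h1 (−0.32), Dazl (−0.31) and Asz1 (−0.54). With no filter 3607 probes, 1 member and 1 list gene were lower. Scaling to the median left 1 member lower. Normexp, quantile normalization, trend and robust moderation, and the filter on all 4 arrays each gave 1 member higher, and normexp and moderation 10 list genes lower. The brightest probe or the mean per gene left 0 members lower. Without single arrays, probes called higher ranged from 1166 to 4874 and lower from 641 to 5709, members from 0 to 1 and 0 to 2, and list genes from 0 to 15 and 0 to 8; the lowest counts came without an Input array. Dnmt1 ranged from −0.40 to 0.095, Dnmt3a A_52_P76146 from −0.45 to 0.26 and Dnmt3l from −0.36 to 0.25. The slide was shared by all arrays, so a slide or scan block was not run. Signal over background limits Tet2, Dnmt3l and Zbtb38.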
